A study of Mus musculus with 6 samples.

Results

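Messenger RNA of 9 genes of the tight junction was followed in endothelial cells sorted from the retinas of mouse pups with a conditional knockout of Rnf20. The genes were taken by symbol from the 19124 gene symbols of the deposited count table: Cldn5, Ocln, Tjp1, Marveld2, Lsr, F11r, Jam2, Jam3 and Esam. All 9 were in the table, each was represented by its longest transcript entry, and all 9 passed the filter on low counts. In KO libraries Cldn5, Esam, F11r and Lsr were higher than in Ctrl libraries, between 2.14-fold and 3.47-fold, and Jam2 was lower. Ocln, Tjp1, Marveld2 and Jam3 did not pass the test. These directions hold for levels scaled to the whole library. No member passed when KO 2, Ctrl 1, Ctrl 2 or Ctrl 3 was left out. With each library's trend with transcript GC content taken out, Lsr and Jam2 did not pass and Ocln did. The endothelial markers were themselves higher in KO, and with libraries scaled to equal levels of these markers only Jam2 and Jam3 passed, both lower in KO, where 42.9% of all genes passed as lower. Relative to the median of all genes in that fit, Jam2 was at -1.04 and Jam3 at 0.10 on the log2 scale.

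The KO pups had the genotype Pdgf{beta}CreERT2pos Rnf20p/p, and the Ctrl pups were Pdgf{beta}CreERT2neg Rnf20p/p. Both groups were C57BL/6, both carried the Rnf20p/p alleles, and both received 75 µg of 4-hydroxytamoxifen on each day from postnatal day 1 to day 4. CreERT2 is a recombinase that enters the nucleus once tamoxifen binds it, and the Pdgfb promoter drives it mainly in endothelium. Retinas were digested at postnatal day 7 and cells carrying CD31, the product of Pecam1, were sorted, so that other cells carrying or adhering to CD31 can also enter the sample. Each of the 3 KO and 3 Ctrl libraries came from a different pup. The series asks how the dose of Rnf20, a ubiquitin ligase of histone H2B, bears on vessel sprouting, and here the question was put to the junctions that seal the vessel wall.

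Tight junctions close the gap between neighbouring endothelial cells and make the inner blood-retina barrier, which keeps plasma proteins and ions out of the neural retina. Claudins form the strands, occludin and tricellulin are tetraspanning partners within them, and angulins such as Lsr bring tricellulin to the points where the borders of several cells meet. The JAM proteins and Esam are immunoglobulin-like adhesion molecules of the same contacts, and Tjp1 (ZO-1) is a scaffold below the membrane that ties the strands to actin.

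Promoter sequence is shown for Cldn5, F11r and Lsr, the members that were higher in KO and have an entry among the RefSeq promoters (GRCm38.p6, 250 bases before to 50 bases after the start, 5′ to 3′ on the strand of the gene). Capitals mark a match to the core CGGAA, in either orientation, which factors of the ETS family recognise. ETS factors such as Erg are central in endothelium, which is why this core is marked.
Cldn5 promoter, chr16:18776597-18776896, plus strand: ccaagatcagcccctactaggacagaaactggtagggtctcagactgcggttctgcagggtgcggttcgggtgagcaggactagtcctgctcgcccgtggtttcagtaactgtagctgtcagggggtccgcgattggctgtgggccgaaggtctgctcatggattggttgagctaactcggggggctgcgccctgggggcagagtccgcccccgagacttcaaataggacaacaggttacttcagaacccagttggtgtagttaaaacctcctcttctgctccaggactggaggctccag
F11r promoter, chr1:171437311-171437610, plus strand: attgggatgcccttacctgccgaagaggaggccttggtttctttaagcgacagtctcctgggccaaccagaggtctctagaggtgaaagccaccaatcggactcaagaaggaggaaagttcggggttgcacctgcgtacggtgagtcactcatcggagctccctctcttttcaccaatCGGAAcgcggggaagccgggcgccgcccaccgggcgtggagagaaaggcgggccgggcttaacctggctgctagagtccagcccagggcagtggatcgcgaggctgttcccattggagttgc
Lsr promoter, chr7:30973420-30973719, minus strand: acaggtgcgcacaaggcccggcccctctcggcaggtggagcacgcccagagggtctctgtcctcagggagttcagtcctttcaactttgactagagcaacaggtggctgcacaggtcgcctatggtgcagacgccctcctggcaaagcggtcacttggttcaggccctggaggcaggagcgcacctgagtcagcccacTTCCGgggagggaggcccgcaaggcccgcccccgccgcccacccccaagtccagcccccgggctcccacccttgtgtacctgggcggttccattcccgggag
The F11r and Lsr windows held 1 match each and the Cldn5 window held none, where 29.9% of all 32817 promoters of this length held at least 1. The core was also matched in the windows of genes that did not pass the test, with 2 matches for Tjp1, 1 in both Marveld2 windows and 1 in only 1 of the 2 Ocln windows. The SOX core ACAAT, searched on both strands, was matched in no member window and in 31.0% of all promoters. The GC box GGGCGG was matched in every member window, against 35.6% of all promoters, with 3 matches for Lsr and 1 each for Cldn5 and F11r. The E-box CANNTG was matched 5 times for Lsr, once for Cldn5 and F11r and not for Tjp1, and in 72.3% of all promoters. The member windows held 54.0% to 68.0% G and C, against a median of 52.7% for all promoters. The part of this in the GC box and SOX core matches was not tested. A match is a string of letters and was not tested as a binding site. Esam, Jam2 and Jam3 have no entry.

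The libraries held between 25016982 and 30692948 counts in KO and between 14581701 and 28969300 in Ctrl. Rnf20 itself was at 39.1, 31.0 and 31.7 CPM (counts relative to the library total after TMM scaling) in KO 1, 2 and 3, against 47.9, 57.1 and 56.8 CPM in Ctrl 1, 2 and 3. The groups did not overlap, but the adjusted p was 0.101 (edgeR, quasi-likelihood test, Benjamini-Hochberg adjustment over all genes). The sum of 15 endothelial markers was 5743 to 8135 CPM in KO and 2408 to 3716 CPM in Ctrl, with Eng the most abundant, and 9 of the 15 were higher in KO and none was lower by the same test. Fewer cells of a type and less RNA per cell cannot be told apart in such libraries. Photoreceptor markers, led by Sag, summed to 4995 to 24452 CPM in KO and 19523 to 34846 CPM in Ctrl, with 2 of 14 lower in KO. Müller glia and astrocyte markers, led by Apoe, summed to 2846 to 17268 CPM in KO and 2260 to 2956 CPM in Ctrl, with 4 of 12 higher in KO. Microglia markers reached 11908 CPM in KO 2, against 222 CPM in KO 1 and at most 1443 CPM in Ctrl. Erythroid markers summed to 384 to 557 CPM in KO and 51.0 to 81.6 CPM in Ctrl. Markers of simple epithelium, whose cells also make claudins, F11r, Lsr, Ocln and Marveld2, summed to 12.9 to 51.8 CPM in KO and 38.4 to 53.8 CPM in Ctrl. Pigment epithelium markers summed to 11.5 to 39.3 CPM in KO and 10.1 to 11.9 CPM in Ctrl, platelet markers to 19.2 to 37.4 CPM in KO and 11.4 to 13.1 CPM in Ctrl, and mural cell markers to 396 to 814 CPM in KO and 188 to 875 CPM in Ctrl. Bipolar and amacrine markers summed to 339 to 664 CPM in KO and 714 to 932 CPM in Ctrl, and ganglion cell markers to 395 to 434 CPM in KO and 266 to 279 CPM in Ctrl. By the same test, 4 of 5 erythroid, 2 of 7 ganglion cell, 1 of 4 platelet and 1 of 12 mural cell markers tested were higher in KO. Of 12 bipolar and amacrine markers 2 were lower, and no marker of microglia, pigment epithelium or simple epithelium passed. Of all genes tested, 5.85% passed as higher and 4.44% as lower. No marker was at 0 in all 6 libraries. Apart from the endothelial markers, the part of these cells in the results below was not tested.

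Across the members, 4 genes passed the test as higher in KO, against a background of 5.85% of the 16217 genes tested. One member passed as lower, where 4.44% of all genes did, and 10.3% of all genes passed in either direction. The median log2 fold change of the 9 members was 0.59, against 0.027 for all genes tested. The KO and Ctrl libraries did not overlap for 4 members higher in KO and for 1 lower in KO, while 19% and 18.9% of all genes were without overlap as higher and as lower. The number of calls depends on single libraries. Without KO 2, Ctrl 1, Ctrl 2 or Ctrl 3, edgeR called 0 members and 0 genes of the whole table, while Cldn5, Esam, F11r, Lsr and Jam2 each had an unadjusted p below 0.05 in every one of these fits. Such a p was common there, with 3434 to 4005 genes below 0.05 in edgeR among 16533 to 16722 tested. DESeq2 and limma-voom, run on all 6 libraries, called the same 5 members.

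**Figure D1:**
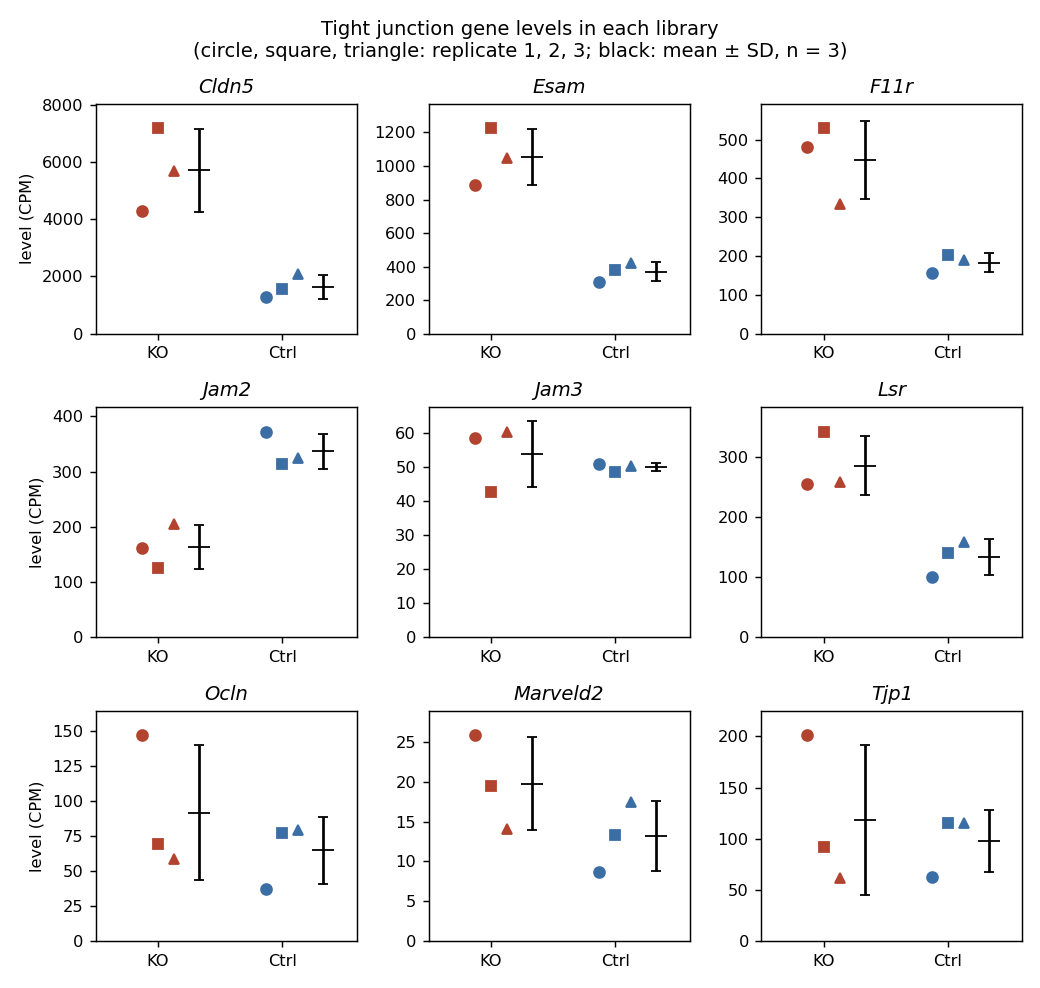
Level of each of the 9 genes in every library, in CPM on a linear axis starting at 0, with KO libraries at the left and Ctrl libraries at the right of each panel and the mean ± SD of 3 libraries in black. For Cldn5, Esam, F11r and Lsr every KO library lies above every Ctrl library, for Jam2 every KO library lies below, and for the other 4 genes the groups overlap.

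Cldn5 (NM_013805, chromosome 16, 18776847 to 18778262, plus strand, 1 exon) encodes claudin-5, the main strand-forming claudin of endothelium in the brain and retina. It stood at 4275, 7176 and 5682 CPM in KO 1, 2 and 3, against 1269, 1573 and 2097 CPM in Ctrl 1, 2 and 3. The groups did not overlap, the lowest KO library being KO 1 and the highest Ctrl library Ctrl 3. The mean was 5711 ± 1451 CPM in KO and 1646 ± 419 CPM in Ctrl (SD, n = 3 each), a 3.47-fold higher level. The log2 fold change was 1.79 ± 0.314 (SE), with a 95% interval of 1.07 to 2.52 and an adjusted p of 0.0228 in edgeR. Cldn5 has the highest transcript GC content of the 9 genes, 60.5%. With offsets that take out each library's trend with transcript GC content, its log2 fold change was 1.17, with an adjusted p of 0.0430 in edgeR.

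Esam (NM_027102, chromosome 9, 37528089 to 37538319, plus strand, 7 exons) encodes an adhesion molecule of endothelial contacts and platelets. Its level was 888, 1224 and 1049 CPM in KO 1, 2 and 3, against 311, 379 and 420 CPM in Ctrl 1, 2 and 3. Every KO library was above every Ctrl library. The mean was 1054 ± 168 CPM in KO and 370 ± 55.0 CPM in Ctrl (SD, n = 3 each), and the log2 fold change was 1.51 ± 0.253 (SE) with an adjusted p of 0.0224 in edgeR. With the GC offsets it was 1.25, with an adjusted p of 0.0205 in edgeR.

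F11r, Jam2 and Jam3 encode JAM-A, JAM-B and JAM-C, adhesion molecules of one family. JAM-A binds mainly to itself across the contact, and JAM-B and JAM-C bind each other. F11r was higher in KO, Jam2 was lower and Jam3 passed in neither direction. F11r (NM_172647, chromosome 1, 171437561 to 171464593, plus strand, 10 exons) was at 480, 529 and 335 CPM in KO 1, 2 and 3, against 156, 202 and 191 CPM in Ctrl 1, 2 and 3. The groups did not overlap, with KO 3 the lowest of the KO libraries. The mean was 448 ± 101 CPM in KO and 183 ± 23.7 CPM in Ctrl (SD, n = 3 each), and the log2 fold change was 1.29 ± 0.265 (SE) with an adjusted p of 0.0278 in edgeR. The GC offsets left it at 1.29 (adjusted p = 0.0210 in edgeR).

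Jam2 (NM_023844, chromosome 16, 84774123 to 84826380, plus strand, 10 exons) was the member that fell. It was at 162, 125 and 205 CPM in KO 1, 2 and 3, against 372, 313 and 324 CPM in Ctrl 1, 2 and 3. The highest KO library, KO 3, lay below the lowest Ctrl library, Ctrl 2. The mean was 164 ± 39.7 CPM in KO and 336 ± 31.2 CPM in Ctrl (SD, n = 3 each), so that the level in Ctrl was 2.05 times that in KO. Jam2 had a log2 fold change of -1.04 ± 0.259 (SE), with a 95% interval of -1.63 to -0.44 and an adjusted p of 0.0440 in edgeR. Jam2 is also made by cells outside the endothelium, and photoreceptor marker sums were lowest in KO 1 and KO 2. In KO 3 that sum was 24452 CPM, above 19523 CPM in Ctrl 2 and 22459 CPM in Ctrl 3. Bipolar and amacrine marker sums were lower in KO, at 339 to 664 CPM against 714 to 932 CPM in Ctrl. Ganglion cell marker sums were higher in KO, at 395 to 434 CPM against 266 to 279 CPM in Ctrl. The part of such cells in the Jam2 level was not tested. Under GC offsets its log2 fold change was -0.77 and the adjusted p of edgeR was 0.0844, which did not pass, and without KO 3 it was -1.19 with an adjusted p of 0.0517 in edgeR.

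Jam3 (NM_023277, chromosome 9, 27097384 to 27155421, minus strand, 9 exons), the partner of Jam2, was at 58.4, 42.7 and 60.2 CPM in KO 1, 2 and 3, against 50.9, 48.5 and 50.2 CPM in Ctrl 1, 2 and 3. The Ctrl libraries lay within the range of the KO libraries. Jam3 had a log2 fold change of 0.11 ± 0.236 (SE), with a 95% interval of -0.44 to 0.65 and an adjusted p of 0.791 in edgeR, so the interval leaves room for a change of either sign.

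Marveld2 and Lsr encode proteins of the tricellular contact. Lsr (NM_001164184, chromosome 7, 30957770 to 30973469, minus strand, 9 exons), also called angulin-1, was at 255, 341 and 259 CPM in KO 1, 2 and 3, against 101, 141 and 158 CPM in Ctrl 1, 2 and 3. The groups did not overlap. The mean was 285 ± 48.6 CPM in KO and 133 ± 29.4 CPM in Ctrl (SD, n = 3 each), and the log2 fold change was 1.10 ± 0.267 (SE) with an adjusted p of 0.0406 in edgeR. Lsr has a transcript GC content of 58.2%, and with GC offsets its log2 fold change was 0.63 with an adjusted p of 0.180 in edgeR, which did not pass. Without KO 3 it was 1.22 with an adjusted p of 0.0640 in edgeR.

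Marveld2 (NM_001038602, chromosome 13, 100595957 to 100616971, minus strand, 7 exons) encodes tricellulin, which Lsr brings to those contacts. It was the lowest member, at 25.8, 19.5 and 14.1 CPM in KO 1, 2 and 3, against 8.71, 13.3 and 17.5 CPM in Ctrl 1, 2 and 3. KO 3 lay between the Ctrl libraries, so the groups overlapped. Marveld2 had a log2 fold change of 0.59 ± 0.372 (SE), with a 95% interval of -0.27 to 1.44 and an adjusted p of 0.319 in edgeR.

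Ocln (NM_001360536, chromosome 13, 100496504 to 100552718, minus strand, 9 exons) encodes occludin, a regulator of the junction rather than a strand builder. It was at 147, 69.0 and 58.6 CPM in KO 1, 2 and 3, against 37.0, 77.3 and 79.3 CPM in Ctrl 1, 2 and 3. KO 1 was the highest library and Ctrl 1 the lowest, and the other 4 lay close together. The log2 fold change was 0.50 ± 0.433 (SE), with a 95% interval of -0.49 to 1.50 and an adjusted p of 0.466 in edgeR. Ocln has the lowest transcript GC content of the members, 42.0%, and with GC offsets its log2 fold change was 0.99 with an adjusted p of 0.0343 in edgeR, past the threshold. Without KO 1 it was 0.056 (adjusted p = 0.918 in edgeR).

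Tjp1 (NM_001163574, chromosome 7, RefSeq gene 65296165 to 65527850, minus strand, 27 exons) encodes the scaffold ZO-1. It was at 201, 91.5 and 61.7 CPM in KO 1, 2 and 3, against 62.5, 115 and 116 CPM in Ctrl 1, 2 and 3. KO 1 alone stood above the Ctrl libraries. For Tjp1 the log2 fold change was 0.27 ± 0.457 (SE), with a 95% interval of -0.78 to 1.33 and an adjusted p of 0.719 in edgeR, and it was -0.27 without KO 1.

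Over the libraries, the members fell into a few patterns. On log2 CPM centred on each gene's mean over 6 libraries, Cldn5 and Esam were the closest pair, with a root mean square difference of 0.189. F11r and Lsr differed by 0.205 and Ocln and Tjp1 by 0.207. Ocln, Tjp1 and Marveld2 shared their highest library, KO 1. Cldn5 and Jam2 were the farthest apart, at 1.50. These distances describe 6 libraries and carry no test.

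**Figure D2:**
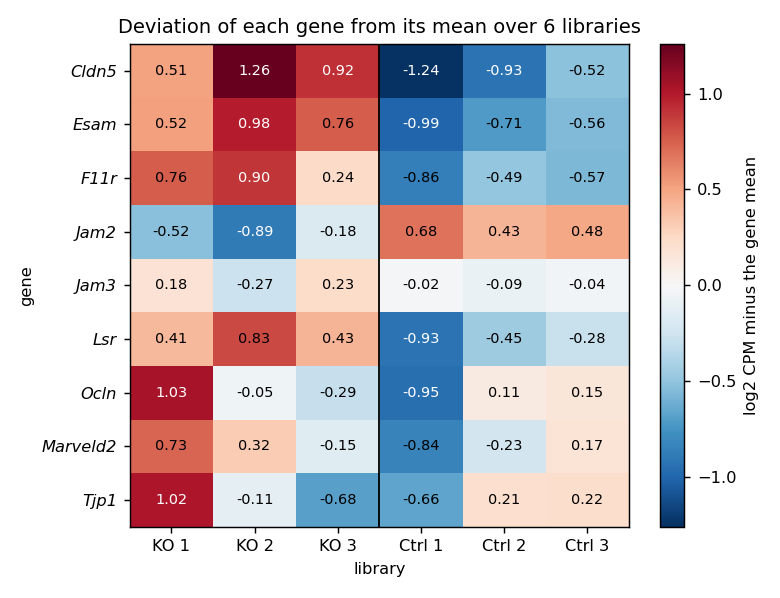
Log2 CPM of each of the 9 genes in each library, centred on the gene's mean over the 6 libraries, with KO libraries left of Ctrl libraries. Cldn5, Esam, F11r and Lsr are above their mean in all 3 KO libraries, Jam2 is below, and Ocln, Tjp1 and Marveld2 are highest in KO 1.

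Levels can be ranked between genes only per length, and were set per kilobase of transcript. The counts may include reads from introns, and genes with long introns would then be raised. For 34 of 39 small genes inside an intron of a larger gene, the larger gene's total was at least 95% of the small gene's. These 39 had more than 5000 counts each. Reads in the larger gene's own exons can also give such a total, so the part of intron reads was not tested. In KO the order of mean levels was Cldn5 at 4033 ± 1025, Esam at 565 ± 90.3, F11r at 178 ± 40.0 and Lsr at 138 ± 23.5 CPM per kilobase (SD, n = 3). Jam2 followed at 37.5 ± 9.08 CPM per kilobase, then Jam3, Ocln, Tjp1 and Marveld2, the lowest at 6.46 ± 1.93. In Ctrl Cldn5 was again first at 1163 ± 296 and Esam second at 198 ± 29.5, but next came Jam2 at 77.0 ± 7.14 CPM per kilobase, with F11r at 72.7 ± 9.42 and Lsr at 64.2 ± 14.2. Neighbours in the KO order whose libraries overlap are F11r and Lsr, and Jam2, Jam3, Ocln and Tjp1. In the Ctrl order Jam2, F11r and Lsr overlap, as do Tjp1 and Ocln, and F11r was above Jam2 in Ctrl 2 (80.1 against 71.6 CPM per kilobase) and in Ctrl 3 (75.8 against 74.2). Cldn5 made up 80.2% of the summed level of the 9 genes in KO and 71.0% in Ctrl, and Jam2 made up 0.746% in KO and 4.70% in Ctrl.

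Since the endothelial markers were higher in KO, each member was also set against their sum within the same library, which is free of library scaling. With 3 libraries against 3, an exact two-sided permutation test cannot give a p below 0.1. The log2 ratio of Cldn5 to the markers was -0.79, -0.18 and -0.016 in KO 1, 2 and 3, against -0.92, -1.24 and -0.82 in Ctrl 1, 2 and 3. It was 0.67 higher in KO, the groups did not overlap and the exact permutation p was 0.1, or 0.225 after Benjamini-Hochberg adjustment over 9 ratios. The log2 ratio of Jam2 was -5.51, -6.02 and -4.81 in KO 1, 2 and 3, against -2.70, -3.57 and -3.51 in Ctrl 1, 2 and 3. The difference was -2.19, without overlap (exact permutation p = 0.1, adjusted 0.225). The differences of -1.04 for Jam3 and -0.53 for Marveld2 also had no overlap between groups and an exact permutation p of 0.1. For Esam (0.38), F11r (0.15), Lsr (-0.016), Ocln (-0.67) and Tjp1 (-0.98) the groups overlapped. Their exact permutation p was 0.2, and that of Lsr 0.9. With the mean log2 of the markers in place of their sum, Cldn5 was 0.61 higher in KO (exact permutation p = 0.2). The difference for Tjp1 was then -1.04 (exact permutation p = 0.1). For Cldn5 and Tjp1 the outcome therefore depends on how the markers are combined, while Jam2, Jam3 and Marveld2 kept an exact permutation p of 0.1.

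**Figure D3:**
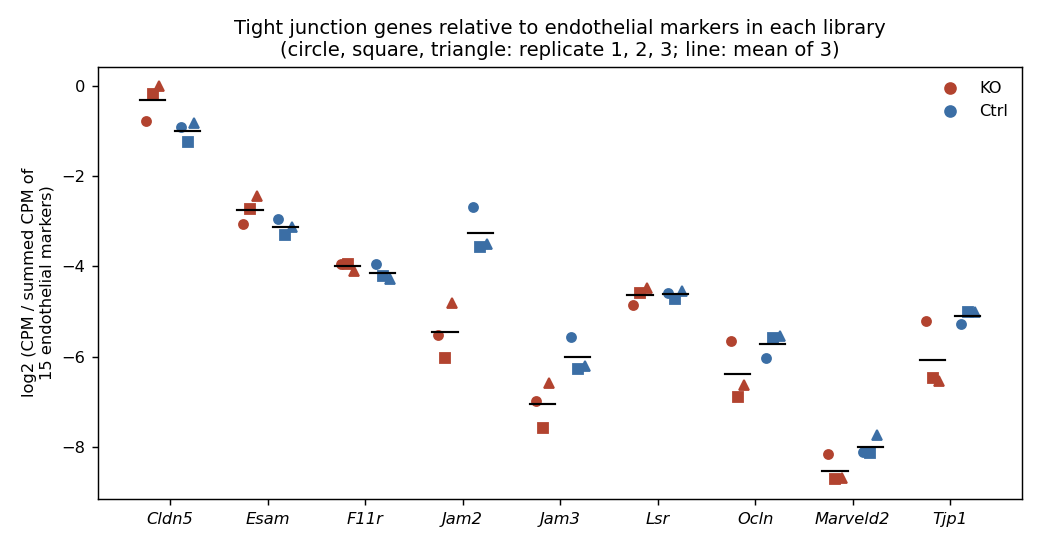
Log2 ratio of each of the 9 genes to the summed CPM of 15 endothelial markers within each library, with KO left of Ctrl, 1 point per library and a line at the mean of 3. Every KO library lies above every Ctrl library for Cldn5 and below for Jam2, Jam3 and Marveld2, and the groups overlap for the other genes.

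Scaling all libraries to equal endothelial markers in edgeR moved the median log2 fold change of all genes tested to -1.18. Under it Jam2 at -2.22 (adjusted p = 0.00444) and Jam3 at -1.08 (adjusted p = 0.0460) passed as lower and no member passed as higher. In that fit 42.9% of all genes passed as lower and 0.481% as higher. Cldn5 was 0.64 (adjusted p = 0.194 in edgeR), Esam 0.34 and F11r 0.083, while Lsr at -0.066, Ocln, Marveld2 and Tjp1 changed sign. Relative to that median, the same fit gave Cldn5 1.82, Esam 1.52, F11r 1.26, Lsr 1.11, Marveld2 0.59, Ocln 0.52, Tjp1 0.26, Jam3 0.10 and Jam2 -1.04. The estimate for Jam3 was thus not below that of the median gene. With the GC offsets alone, Cldn5, Esam, F11r and Ocln passed as higher and none as lower, where 5.75% of all genes passed as higher and 7.18% as lower. With the equal markers and the GC offsets together, a combination chosen after seeing the data, Cldn5 was 0.029 (adjusted p = 0.942 in edgeR) and only Jam2 passed, at -1.94.

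**Figure D4:**
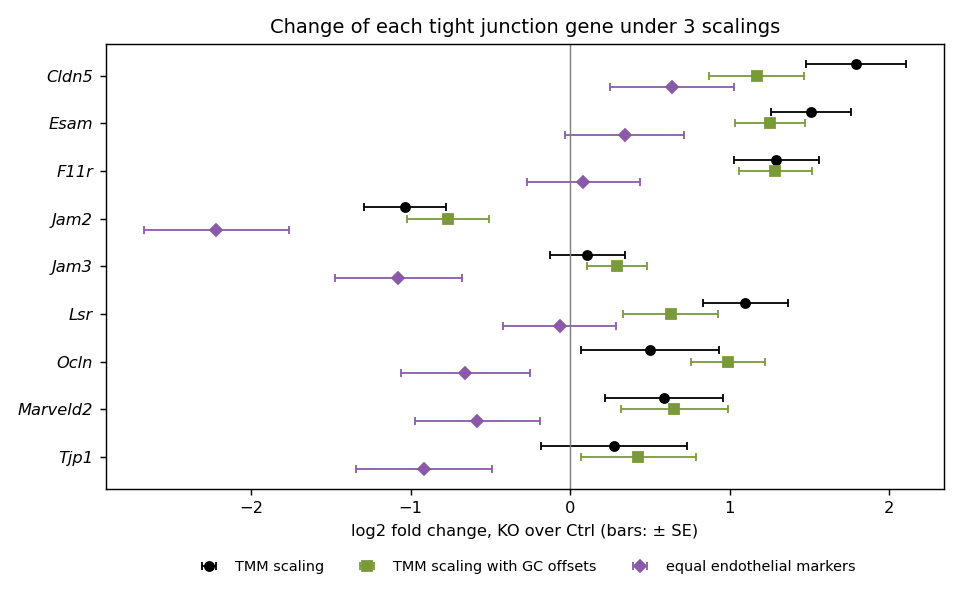
Log2 fold change of KO over Ctrl for each of the 9 genes on the horizontal axis, with bars of ± SE, for TMM scaling (circles), TMM scaling with GC offsets (squares) and scaling to equal endothelial markers (diamonds). With TMM scaling Cldn5 is highest at 1.79 and Jam2 lowest at -1.04, and with equal markers every gene lies further to the left.

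Ratios between members do not depend on 1 scaling factor per library, but offsets for GC content differ by gene and do move them. The log2 ratio of F11r to Jam2, the genes of JAM-A and JAM-B, was 1.57, 2.08 and 0.71 in KO 1, 2 and 3, against -1.25, -0.63 and -0.76 in Ctrl 1, 2 and 3. This ratio, of CPM and not per length, was higher in every KO library than in every Ctrl library. The difference was 2.34 on the log2 scale (exact permutation p = 0.1, adjusted 0.125 over 5 ratios). The ratio of Jam3 to Jam2 was 1.15 higher in KO, that of Cldn5 to Tjp1 1.64 and that of Esam to Jam3 1.42, each without overlap and each with an exact permutation p of 0.1. The ratio of Cldn5 to Ocln was 1.33 higher with groups that overlapped, and the exact permutation p was 0.2. With GC offsets, taken as the difference of the fitted log2 fold changes and added after seeing the data, Cldn5 to Ocln was 0.18, against 1.29 without the offsets. On the same basis Cldn5 to Tjp1 was 0.74 with the offsets and 1.52 without, and Esam to Jam3 was 0.96 with them and 1.40 without. F11r to Jam2 was 2.05 with the offsets and 2.33 without, and Jam3 to Jam2 was 1.06 with them and 1.14 without. These fitted differences were not tested.

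In the other junction lists some genes passed as higher and some as lower under TMM scaling, while with libraries scaled to equal endothelial markers no gene of these 4 lists passed as higher. Under that scaling 2 other claudins (Cldn1 and Cldn12), 3 other membrane genes, 15 plaque and polarity genes, Crb1 among them, and 2 adherens genes passed as lower, of 9, 9, 29 and 13 tested, in a fit where 42.9% of all genes did. The counts that follow are those with TMM scaling, where 5.85% of all genes passed as higher and 4.44% as lower. No list was tested against that share. Of 9 other claudins tested, 2 were higher and 1 was lower in KO. Their log2 fold changes ranged from -2.54 to 3.69, with 5 positive and 4 negative. The median was 1.62, which in so even a split does not describe the list as a whole. Cldn12, a claudin also reported in brain endothelium, was at 25.6 ± 4.03 CPM in KO and 70.6 ± 8.94 CPM in Ctrl (SD, n = 3 each; log2 fold change -1.46, adjusted p = 0.0224 in edgeR). Cldn10 at 15.7 ± 6.58 CPM in KO and 4.65 ± 1.29 CPM in Ctrl was higher (log2 fold change 1.76, adjusted p = 0.0384 in edgeR), as was the scarce Cldn19 at 8.77 ± 4.42 CPM in KO and 1.97 ± 0.169 CPM in Ctrl. Cldn19 did not pass with limma-voom or without KO 3.

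For 9 tested other membrane proteins of tight junctions and of the JAM family, the median was 0.52. Of their estimates 5 were positive and 4 negative, and 1 gene passed as higher and none as lower. It was Marveld1, a relative of tricellulin, at 10.9 ± 5.79 CPM in KO and 3.11 ± 0.507 CPM in Ctrl (SD, n = 3 each; adjusted p = 0.0493 in edgeR). Marveld1 did not pass with GC offsets or with limma-voom, where Igsf5 passed instead, nor without the filter on low counts. Among 29 plaque and polarity genes 2 were higher and 1 lower, with a median of -0.10. Cgnl1, the junction protein paracingulin, was at 144 ± 11.1 CPM in KO and 48.4 ± 22.3 CPM in Ctrl, and Rab13, a GTPase of junction assembly, at 32.0 ± 5.89 CPM in KO and 13.3 ± 1.36 CPM in Ctrl. Cgnl1 did not pass with GC offsets or without KO 3. The lower gene was Crb1, a polarity protein known from photoreceptors and Müller glia, at 35.1 ± 7.50 CPM in KO and 141 ± 29.4 CPM in Ctrl (log2 fold change -2.01, adjusted p = 0.0211 in edgeR).

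Of 13 adherens junction genes, 2 were higher and none lower, with a median of 0.49. Nectin2, a nectin of cell contacts, was at 350 ± 71.6 CPM in KO and 134 ± 14.8 CPM in Ctrl (log2 fold change 1.39, adjusted p = 0.0230 in edgeR). Cdh5, the VE-cadherin gene, was at 541, 490 and 502 CPM in KO 1, 2 and 3, against 164, 281 and 272 CPM in Ctrl 1, 2 and 3 (log2 fold change 1.10, adjusted p = 0.0441 in edgeR), and it overlaps Gm29682. Cdh5 did not pass with GC offsets or without KO 3. Pecam1, the gene of the sorting marker, had a log2 fold change of 0.83 that did not pass (adjusted p = 0.142 in edgeR).

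The genes whose levels followed Cldn5 most closely over the 6 libraries, out of 12351 compared, were Fbln1, with a root mean square difference of 0.0823 in centred log2 CPM, Selenom, Gmpr, Mxra8 and Nme2, the last at 0.145. Those closest to Jam2 were Mrpl47, at 0.0722, 9530077C05Rik, Ncbp3, Kdm5b and Sybu, at 0.0802. Of these, 9530077C05Rik, Kdm5b and Sybu overlap another gene of the table, so their counts are uncertain. All were picked as the smallest of 12351 differences over 6 libraries, and a shared difference between KO and Ctrl brings genes close on this measure. Shared regulation was not tested.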

How the data were processed

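Polyadenylated RNA of CD31-sorted retinal cells was amplified as full-length cDNA and sequenced as single reads, per the labels' protocols. Of the tools in the submitters' processing notes (Trimmomatic 0.36, STAR, DESeq2, edgeR, deepTools; mouse build mm10) no role is stated, and the tool that counted reads is not given in the sources used here. Per the file headers, the deposited table holds raw counts for 34035 transcript entries. The authors' normalized counts are a signal equal to the count divided by 1 constant per library. The deposited RPKM, log2 fold changes, Wald score and p-values of the authors were not used in any result. The Ctrl 3 count column had an irregular name and was assigned because it was the only one left unmatched in its group.

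Per symbol, the entry with the longest span was kept. KO was compared with Ctrl by edgeR 4.0.16 (R 4.3.3; quasi-likelihood, TMM, filterByExpr, no covariate), two-sided, with Benjamini-Hochberg adjustment over 16217 genes and a threshold of 0.05. Adjusted p-values of single genes in the report come from that test, unless another scaling, offset, left-out library or tool is named with them. DESeq2 1.42.0 and limma 3.58.1 (voom) were alternatives, beside other scalings and filters, GC offsets (loess, span 0.3), left-out libraries and a replicate block. The script was tested on simulated data. Ratios were tested by exact permutation over 20 splits. p-values measure the spread between pups, the source names of all 6 share a code whose meaning is not stated, and the labels name no batch. Accessions were matched to RefSeq of GRCm38.p6 for 19043 genes; coordinates are 1-based. No member overlaps another gene of the table. Python 3.11.15, pandas 2.3.3, numpy 2.4.6 and matplotlib 3.10.9 were used.

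The members and all lists were chosen with earlier results of these data known. Named genes were the members, Rnf20, Cdh5 and Pecam1, for each list up to 4 genes of at least 1 CPM, by smallest adjusted p, of which those past the threshold are described, and the 5 genes of at least 5 CPM closest to Cldn5 and to Jam2.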

Additional observations from a re-analysis of the deposited data

How the results depend on the processing

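Cldn5, Esam, F11r and Jam2 kept their direction under all 17 alternatives, and each passed the test in 9 of them. Their adjusted p-values ranged, in edgeR, DESeq2 or limma-voom, from 1.06e-05 to 0.942 for Cldn5, 9.71e-06 to 0.791 for Esam, 0.000465 to 0.860 for F11r and 0.00444 to 0.166 for Jam2. Lsr ranged from 0.00434 to 0.890 and passed in 7.

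With libraries scaled to equal endothelial markers, 7033 genes of the table passed, 2 members, 3 other membrane genes and 15 plaque and polarity genes. Log2 fold changes that changed sign there were Ocln -0.66, Tjp1 -0.92, Marveld2 -0.58, Lsr -0.066 and Jam3 -1.08. With GC offsets added to that scaling (chosen after seeing the data), 8872 genes, 1 member, 4 other membrane, 21 plaque and polarity and 4 adherens genes passed, and the same 5 genes had Ocln -0.17, Tjp1 -0.75, Marveld2 -0.51, Lsr -0.52 and Jam3 -0.88. The share of higher calls was 56.8% with TMM, 44.5% with GC offsets alone and 1.11% with equal markers. DESeq2 passed 3556 genes, 3 other membrane, 7 plaque and polarity and 4 adherens genes. Without the filter on low counts, 0 other membrane genes passed. Beyond the changes in sign, which follow from the scaling, the cause of these moves was not tested.

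The replicate numbers did not pair the libraries: same-numbered deviations had r = -0.39, 0.07 and -0.26. Among differently numbered libraries r ranged from -0.33 (KO 2 with Ctrl 3) to 0.41 (KO 1 with Ctrl 3). The cause of these correlations was not tested. With the replicate block 1 gene passed, and with GC offsets too 2 genes. In either blocked fit of edgeR, 0 members, other claudins, other membrane, plaque and polarity or adherens genes passed. In each, 5 members had an unadjusted p below 0.05 in edgeR, as did 3407 and 4231 of all 16217 genes. The 5 were Cldn5, Esam, F11r, Jam2 and Lsr with the block alone, and with GC offsets too Ocln stood in place of Lsr.

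Leaving out 1 library gave between 0 and 4927 genes, 0 and 5 members, 0 and 7 other claudins, 0 and 4 other membrane genes, 0 and 8 plaque and polarity genes and 0 and 4 adherens genes. The highest count of genes came without KO 1, and 0 came without KO 2, Ctrl 1, Ctrl 2 or Ctrl 3, where 3576, 4005, 3434 and 3479 genes had an unadjusted p below 0.05 in edgeR, against 4953 with all libraries. The log2 fold change of Tjp1 ranged from -0.27 to 0.61, and the log2 ratio of Lsr to the endothelial markers from -0.097 to 0.094. Depth limits Marveld2 most among the members, with 255 counts in its lowest library.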
